A study of Mus musculus and Rattus norvegicus with 36 samples.

Results

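The methionine sulfoxide reductases are the 4 genes Msra, Msrb1, Msrb2 and Msrb3, and their transcripts were followed in rodents whose diets ran from Se deficiency to Se excess. The members were chosen by gene symbol, with Msrb1 also searched under its older symbol Sepx1. They are 4 of 18193 gene symbols annotated on the mouse array and 14217 on the rat array, and are measured by 10 of the 76200 probe sets on the arrays used, 5 on the mouse array and 5 on the rat array, and all 4 genes are on both. Male weanling mice of a wild-type colony, mostly of C57 black background, were fed for 35 days, and liver and kidney were taken. Male weanling Holtzman rats were fed for 28 days, and liver was taken.

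Every animal ate the same torula-yeast basal diet with added vitamin E and L-methionine, so the Se-adequate animals shared both supplements with the Se-deficient ones. The basal diet alone was the Se-deficient diet (SeDef), and the other diets carried sodium selenite. Mice received the Se-deficient diet, the marginal level of 0.05 μg Se/g, or 0.2 μg Se/g, the adequate level. The arrays of rat study 2 cover the Se-deficient diet and 0.24, 2 and 5 μg Se/g, with 0.24 μg Se/g as the adequate level. The arrays of rat study 1 cover 0.8 and 0.08 μg Se/g. Both rat studies also fed other diets, which have no arrays here. Each diet and tissue had 3 arrays, giving 36 arrays, each from 1 RNA sample.

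Methionine in proteins is easily oxidized to methionine sulfoxide, which forms as S and R isomers. MsrA, the product of Msra, reduces the S form, and the MsrB enzymes, the products of Msrb1, Msrb2 and Msrb3, reduce the R form in proteins. Thioredoxin, kept reduced by thioredoxin reductase, regenerates the enzymes. MsrB1 is the selenoprotein of the family, with selenocysteine at its catalytic site, and resides in the cytosol and nucleus. MsrB2, in mitochondria, and MsrB3, in the endoplasmic reticulum, carry cysteine at that position, as does MsrA, which is found in cytosol and mitochondria. The family therefore holds 1 enzyme that needs Se and 3 genes whose enzymes do not.

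Expression is given as log2 values, 1 per probe set and array. Array medians ran from 6.17 to 6.28 in mouse liver, from 6.24 to 6.29 in mouse kidney and from 6.24 to 6.29 in rat liver. Hepatocyte markers averaged 13.84 to 13.93 on the adequate mouse liver arrays and 7.33 to 8.12 on the adequate kidney arrays, and 13.68 to 13.75 on the adequate rat liver arrays. Kidney markers averaged 11.40 to 11.54 on the adequate kidney arrays, against 5.81 to 5.94 on the adequate mouse liver arrays. Arrays of 1 diet correlated across probe sets with r of at least 0.989, except replicates 1 and 3 of the rats fed 2 μg Se/g (r = 0.972). The tests of the members at 2 μg Se/g against the adequate diet are given with and without replicate 1. Marker means, ranks and values of other genes at that diet are given with it only. Precision is limited by the 3 arrays per diet, and in whole tissue fewer cells of a type and less RNA per cell cannot be told apart.

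No member passed the test in any of the 10 comparisons of diets. In limma, none of the 50 tests of a member probe set reached an adjusted p of 0.05 (Benjamini-Hochberg over all probe sets), and 7 had an unadjusted p under 0.05. Of these 7, 4 were in rats fed 2 μg Se/g, where 15.3% of all probe sets had such a p. A further 2 were at 5 μg Se/g, where 14.7% did, and 1 was in Se-deficient against marginal mouse liver, where 8.76% did. The highest fold between diets was 1.60, for Msrb3 in rats fed 2 μg Se/g. The Msra, Msrb2 and Msrb3 probe sets gave 0 calls in 40 tests, with log2 changes from -0.46 to 0.68. Few probe sets of any gene passed outside the highest Se intake. The share called was 0.0222% in Se-deficient mouse liver, 0.00666% in Se-deficient mouse kidney and 0.00322% in Se-deficient rat liver, all against the adequate diet, and 2.82% in rats fed 5 μg Se/g. It was 0.0111% between Se-deficient and marginal kidney and 0% between marginal and adequate kidney.

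In mouse liver the selenoprotein member Msrb1 was slightly lower without Se, and the signal of Msra was slightly higher. Msrb1 (probe set 1418888_a_at) read 11.87, 11.87 and 11.83 in Se-deficient livers, against 12.10, 12.09 and 11.97 in livers of mice fed 0.2 μg Se/g. All 3 Se-deficient arrays lay below all 3 adequate arrays, as they did for 4.15% of all probe sets. The means were 11.86 ± 0.02 in Se-deficient and 12.05 ± 0.07 in adequate liver (SD, n = 3 each). The log2 change was -0.19 (SE 0.12, adjusted p = 0.926, lower in 3 of 3 samples). Its 95% confidence interval ran from -0.46 to 0.07, that is from a fall of 1.38-fold to a rise of 1.05-fold.

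Msra (1448856_a_at), whose enzyme acts on the S isomer, read 11.13, 11.07 and 11.15 in Se-deficient livers, against 11.05, 10.96 and 10.80 in adequate livers. The groups did not overlap, and 3.45% of all probe sets lay wholly higher in the same way. The log2 change was 0.18 (SE 0.11, adjusted p = 0.926), with a 95% interval from -0.06 to 0.42. Msrb1 and Msra thus lay on opposite sides of the adequate group, each by at most 1.14-fold, and neither passed the test.

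The shift of Msrb1 relative to Msra was also read within each array, which removes what both probe sets share. The log2 value of Msrb1 minus that of Msra was -0.37 in Se-deficient relative to adequate mouse liver. Both probe sets already separated these diets in opposite directions, so this quantity had to separate them too, and its exact two-sided permutation p of 0.10, the smallest that 3 against 3 arrays allow, adds nothing to that. The same quantity was -0.16 in kidney (exact p = 0.70) and 0.07 in rat liver (exact p = 0.70). This quantity does not say which of the 2 transcripts differed.

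The mitochondrial member Msrb2 (1424433_at) overlapped between the diets. It averaged 8.50 ± 0.19 in Se-deficient and 8.58 ± 0.20 in adequate mouse liver, a log2 change of -0.09 (95% interval -0.48 to 0.31). Msrb3 has 2 mouse probe sets, both with signals near or below the array medians in liver. The brighter one, 1454997_at, averaged 6.35 ± 0.04 in Se-deficient and 6.35 ± 0.19 in adequate liver, and the dimmer one, 1439151_at, averaged 5.67 ± 0.14 in Se-deficient and 5.59 ± 0.21 in adequate liver. Their log2 changes were 0.0034 and 0.08, and both overlapped between the diets. A fit that used the replicate number as a block called 16 probe sets in this comparison in place of 10, and still no member passed (adjusted p of 0.598 or more).

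Marginal Se, at 0.05 μg Se/g, gave the widest spread of Msra, Msrb1 and Msrb2 among mouse liver arrays. Msrb1 read 12.38, 11.86 and 11.92 at 0.05 μg Se/g, so that 1 array lay above and 2 lay below all adequate arrays, and the log2 change from 0.2 μg Se/g was 0.0048 (95% interval -0.26 to 0.27). Msra read 11.00, 10.79 and 10.59, a log2 change of -0.14 (95% interval -0.38 to 0.09). Msrb2 read 8.63, 8.52 and 7.90, a log2 change of -0.23 (95% interval -0.63 to 0.16). The array of replicate 3 was the lowest of the 3 for both Msra and Msrb2. No probe set of any gene was called between 0.05 and 0.2 μg Se/g (0%), and in limma 878 had an unadjusted p under 0.05.

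Between the Se-deficient and the marginal diet, Msra gave the smallest p of any member in the mouse. Its level was 11.12 ± 0.04 in Se-deficient liver and 10.79 ± 0.21 at 0.05 μg Se/g, a log2 change of 0.32 (SE 0.11, 95% interval 0.09 to 0.56, limma's unadjusted p = 0.0120, adjusted p = 0.541). All 3 Se-deficient arrays lay above all 3 marginal arrays, as for 5.61% of probe sets, while 8.76% had an unadjusted p under 0.05 and 0.0377% were called. Msrb1 differed by -0.20 (95% interval -0.47 to 0.07), with overlapping groups. Ordered by level, Msra was highest in Se-deficient, then adequate, then marginal liver, and the adequate and marginal arrays overlapped. Msrb1 was lowest in Se-deficient liver, and its adequate and marginal means, 12.05 and 12.06, did not differ beyond their spread.

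In mouse kidney no member separated the diets. Msrb1 read 10.97, 11.58 and 11.26 in Se-deficient kidneys, against 11.71, 11.80 and 11.05 at 0.2 μg Se/g. Both diets spread over more than the difference between them, with means of 11.27 ± 0.31 in Se-deficient and 11.52 ± 0.41 in adequate kidney. The log2 change was -0.25 (SE 0.20, adjusted p = 0.909), and its 95% interval, from a fall of 1.62-fold to a rise of 1.14-fold, was wider than in liver. At 0.05 μg Se/g Msrb1 read 11.53, 11.33 and 11.38, inside the range of both other diets.

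Msra was level in kidney, at 11.45 ± 0.06 in Se-deficient, 11.46 ± 0.04 in marginal and 11.55 ± 0.12 in adequate kidney (SD, n = 3 each). The deposited Msra value was 11.48 and the same to 4 decimals on 4 of the 9 kidney arrays, so its spread there rests on few distinct values. Msrb2 averaged 9.35 ± 0.07 in Se-deficient, 9.32 ± 0.11 in marginal and 9.54 ± 0.17 in adequate kidney. Its log2 change from the adequate diet was -0.20 in Se deficiency (95% interval -0.42 to 0.02) and -0.22 at 0.05 μg Se/g (95% interval -0.44 to 0.00083), and both low-Se groups overlapped the adequate one. These comparisons share the adequate arrays. The 2 Msrb3 probe sets were dim in kidney, with arrays from 5.01 to 5.28 and from 4.02 to 4.27, and their log2 changes from the adequate diet ran from -0.05 to 0.13.

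**Figure D1:**
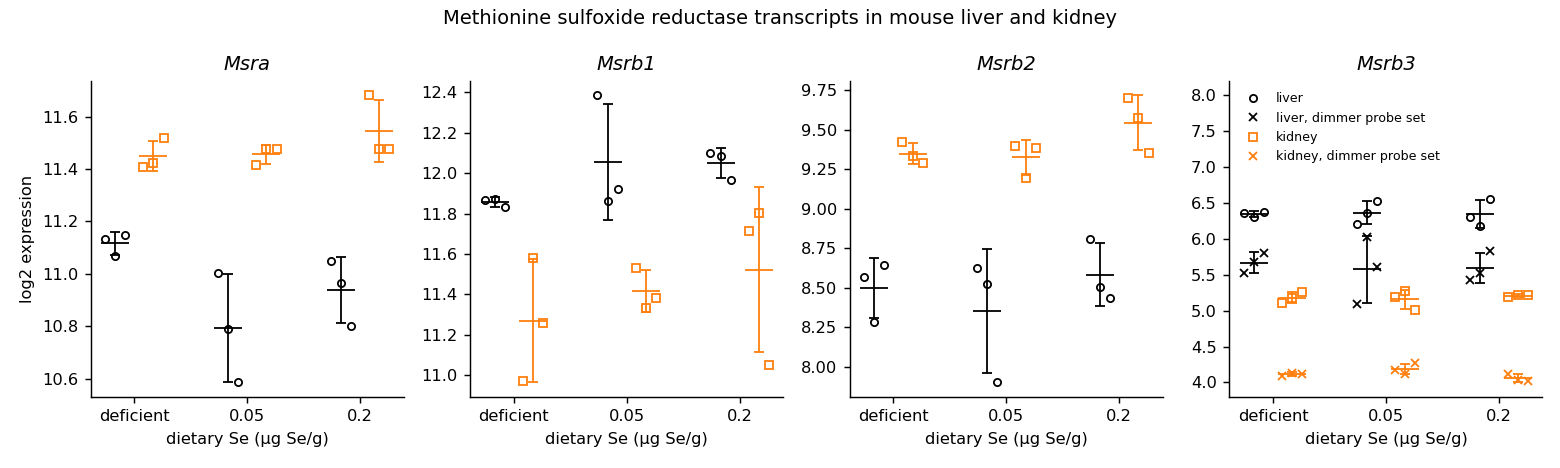
Log2 expression (vertical axis) of the 4 genes in mouse liver (black) and kidney (orange) by dietary Se (horizontal axis, Se-deficient, 0.05 and 0.2 μg Se/g), with 1 symbol per array and bars for the mean ± SD of 3 arrays. Crosses show the dimmer Msrb3 probe set. By the paper's methods the tissues were processed separately, so levels are to be read within a tissue. In liver the Msrb1 arrays of the Se-deficient diet (11.83 to 11.87) sit below those at 0.2 μg Se/g (11.97 to 12.10), and in kidney the diets overlap.

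The responses of the 2 mouse tissues were compared in 1 fit of 18 arrays. The methods give 3 mice per diet for both tissues, so liver and kidney share animals, while this fit takes the arrays as independent, and the labels do not say which arrays come from 1 mouse. The liver response to Se deficiency minus the kidney response was 0.27 for Msra (SE 0.13, 95% interval -0.0094 to 0.56, adjusted p = 0.835), where 0.00222% of all probe sets were called. It was 0.06 for Msrb1 (95% interval -0.46 to 0.58), 0.11 for Msrb2, and 0.03 and 0.02 for the brighter and the dimmer Msrb3 probe set. No member passed this test of the difference between tissues, nor with liver and kidney of the same diet and replicate number as a block (adjusted p of 0.745 or more).

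In rat liver Se deficiency left all members within 1.11-fold of the adequate diet. Msrb1 (1371916_at) read 11.41, 11.28 and 11.19 in Se-deficient livers, against 11.36, 11.33 and 11.41 at 0.24 μg Se/g. Of the Se-deficient arrays 1 lay inside the adequate range and 2 lay below it, and the log2 change was -0.08 (SE 0.21, adjusted p = 0.999). Its 95% interval ran from a fall of 1.45-fold to a rise of 1.30-fold. This SE and interval pool the spread of all diets of study 2, and Msrb1 had an SD of 0.55 at 2 μg Se/g. Its SD was 0.11 in Se-deficient and 0.04 in adequate liver. Without replicate 1 at 2 μg Se/g in the limma fit, no member passed (adjusted p of 0.976 or more). Msra (1387531_at) averaged 9.99 ± 0.13 in Se-deficient and 10.13 ± 0.20 in adequate liver, a log2 change of -0.15 (95% interval -0.57 to 0.27). Msrb2 (1372828_at) averaged 10.27 ± 0.04 in Se-deficient and 10.20 ± 0.07 in adequate liver, a log2 change of 0.06. The Msrb3 probe sets 1383193_at and 1380470_x_at differed by 0.13 and 0.08. The suffix of the second marks probes that can also match other transcripts.

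**Figure D2:**
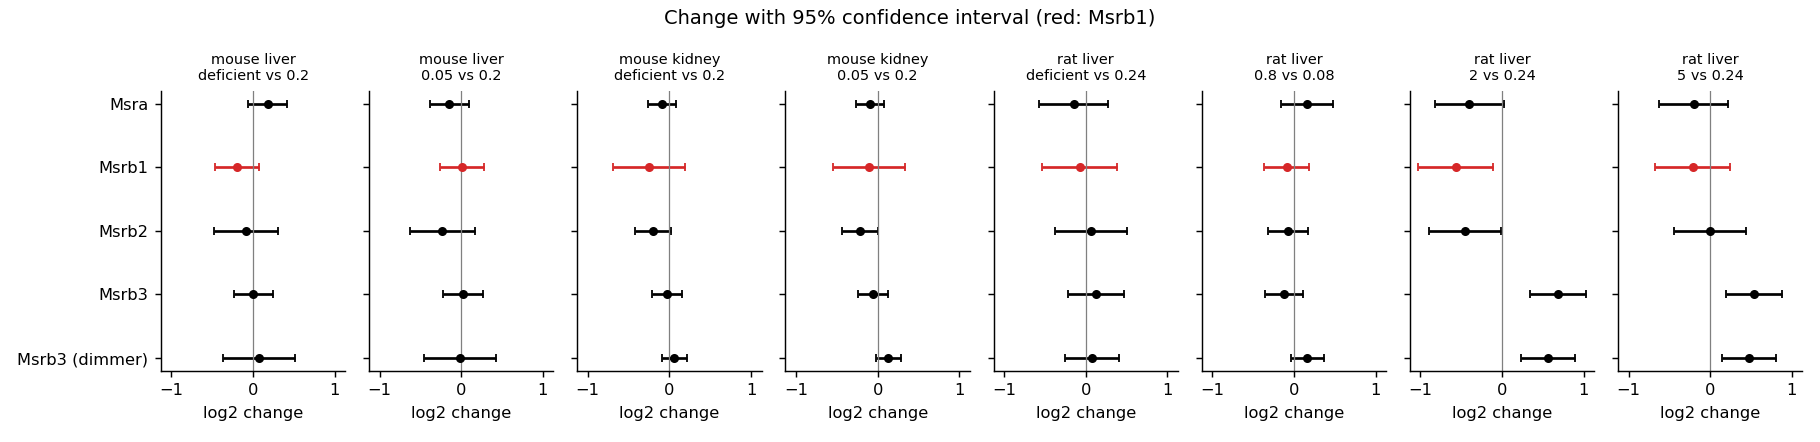
Log2 change (horizontal axis) of each member, with its 95% confidence interval from limma, in 8 comparisons of diets (panels), the first diet named minus the second, in μg Se/g, with Msrb1 in red. All intervals in the 3 Se-deficient panels include 0, and at 2 μg Se/g the intervals of Msrb1, Msrb2 and both Msrb3 probe sets do not, although no adjusted p passed 0.05.

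Beside the other selenoproteins in Se deficiency, the Msrb1 change ranked near the middle in the mouse and among the higher ones in the rat. The list holds 24 selenoprotein genes, of which 23 were measured in the mouse and 22 in the rat, with Msrb1 among them. In Se-deficient mouse liver 4 were called lower, 0 were called higher, and the median log2 change was -0.20, against -0.02 over all probe sets. Selenow, a small thioredoxin-fold protein, fell by 1.90 on the log2 scale. Selenoh, a nuclear redox protein, fell by 1.47, Gpx1, the cytosolic glutathione peroxidase, fell by 1.15, and Selenok, of the endoplasmic reticulum membrane, fell by 0.98. Msrb1 was 14th from the lowest of 23, so that 13 selenoprotein transcripts had a lower change and 9 a higher one. The lower end of its interval, -0.46, lay above the changes of all 4 called genes, and the differences between genes were not tested.

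In Se-deficient kidney 3 selenoproteins were called lower, Selenoh (-1.44), Selenow (-1.44) and Gpx1 (-1.26), with a list median of -0.24 against -0.0074 over all probe sets, and Msrb1 was 11th of 23. In Se-deficient rat liver Gpx1 alone was called, at -1.87, and the list median was -0.44 against -0.01 over all probe sets. There Msrb1 was 18th of 22, with 17 selenoprotein transcripts showing a lower change. Selenoh had a log2 change of -2.60 in the rat and did not pass (adjusted p = 0.0555).

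**Figure D3:**
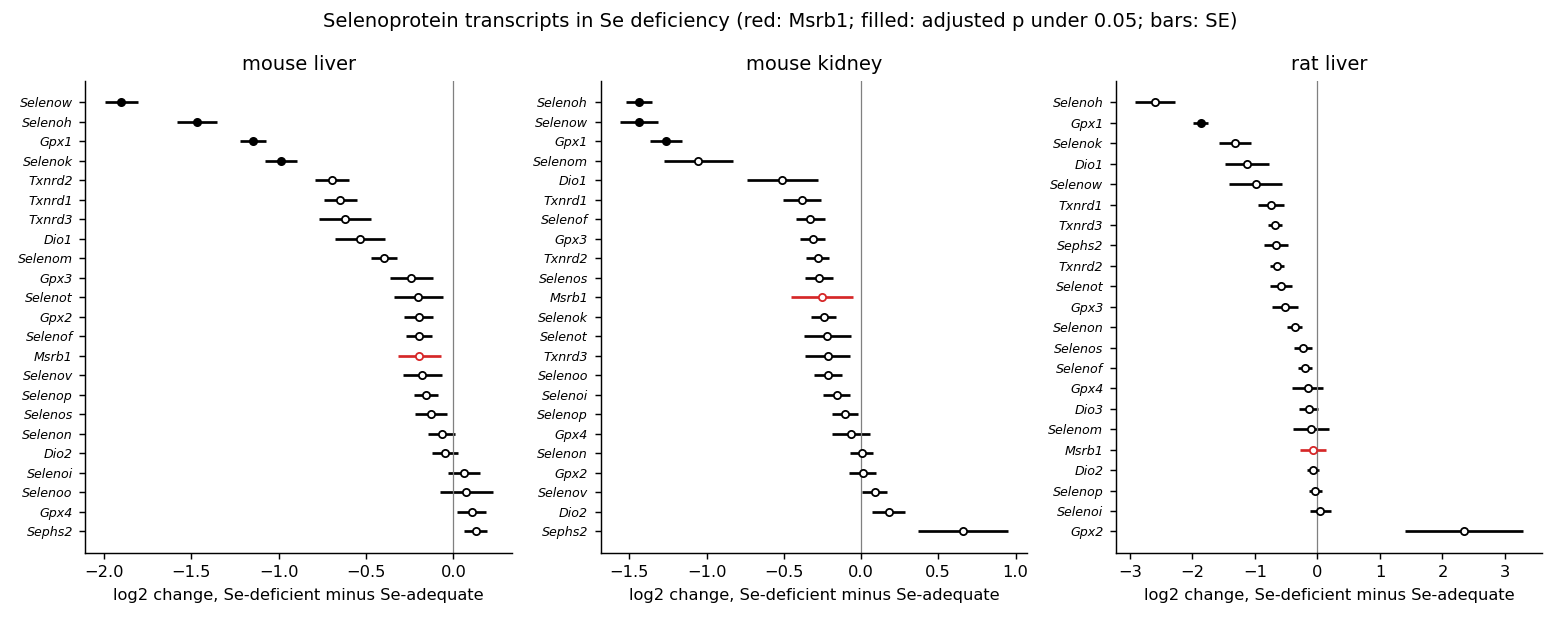
Log2 change in Se deficiency (horizontal axis, Se-deficient minus the adequate diet) of the selenoprotein transcripts, 1 per row, with 1 panel per tissue and species, bars for the SE from limma and filled symbols for an adjusted p under 0.05. Msrb1, in red, is 14th from the lowest of 23 in mouse liver, 11th of 23 in kidney and 18th of 22 in rat liver.

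The thioredoxin and glutaredoxin system, which supplies electrons to the reductases, was read on 14 genes, all measured in both species. By the brightest probe set of each gene, 0 of 14 were called in any of the 3 Se-deficient tissues. The members with the most negative changes were the thioredoxin reductases, which are selenoproteins themselves. In mouse liver Txnrd1, the cytosolic enzyme, had a difference of -0.65 (adjusted p = 0.0981) and Txnrd2, the mitochondrial enzyme, one of -0.70 (adjusted p = 0.0568), and 1 of the 4 Txnrd2 probe sets was called. In rat liver the difference was -0.65 for Txnrd2 and -0.68 for Txnrd3, with adjusted p of 0.242 and 0.128. Thioredoxin itself, Txn1, had differences of 0.04 in mouse liver, -0.02 in kidney and 0.20 in rat liver. The list medians were 0.01, -0.02 and 0.10, against -0.02, -0.0074 and -0.01 over all probe sets.

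The MICAL proteins oxidize methionines of actin, a reaction that MsrB1 reverses in mouse cells. None of Mical1, Mical2 and Mical3 was called in any comparison, and in Se-deficient mouse liver their differences were -0.19, 0.10 and 0.11. Of 10 genes of methionine supply and the methionine cycle, 9 were measured in the mouse and 10 in the rat, and 0 were called in Se deficiency. Mat1a, which makes S-adenosylmethionine in liver, had a difference of -0.08 in Se-deficient mouse liver and of -0.13 in Se-deficient rat liver.

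At high Se the rat liver values of Msra, Msrb1 and Msrb2 had their broadest spread at 2 μg Se/g, and no member passed the test. Msrb1 read 10.23, 10.85 and 11.32 at 2 μg Se/g, against 11.36, 11.33 and 11.41 at 0.24 μg Se/g. The array of replicate 1 was far below all adequate arrays, and the array of replicate 3 lay just under the lowest of them. All 3 were lower, as were 6.9% of all probe sets in the same way. The means were 10.80 ± 0.55 at this intake and 11.37 ± 0.04 for the adequate diet, a shift of -0.57 in log2 (SE 0.21, 95% interval -1.02 to -0.11, limma's unadjusted p = 0.0198, adjusted p = 0.321).

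Msra and Msrb2 had the same order of arrays at 2 μg Se/g. Msra read 9.22, 9.91 and 10.07 at 2 μg Se/g, against 10.32, 9.93 and 10.15 at 0.24 μg Se/g. The shift was -0.40 (SE 0.19, adjusted p = 0.332). Msrb2 read 9.17, 9.82 and 10.25 at 2 μg Se/g, against 10.22, 10.13 and 10.26 at 0.24 μg Se/g, with a shift of -0.46 (SE 0.20, adjusted p = 0.322). In all 3 genes replicate 1 was the lowest, and replicate 3 lay inside the adequate range or just under it.

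Msrb3 lay on the other side of the adequate diet. Its brighter probe set, 1383193_at, read 7.85, 7.66 and 7.59 at 2 μg Se/g, against 6.89, 7.41 and 6.74 at 0.24 μg Se/g. The shift was 0.68 (SE 0.16, 95% interval 0.34 to 1.03, limma's unadjusted p = 0.00105, adjusted p = 0.321). The dimmer 1380470_x_at read 5.16, 4.90 and 4.81, against 4.34, 4.69 and 4.14 at 0.24 μg Se/g, with a shift of 0.56 (SE 0.15, limma's unadjusted p = 0.00296, adjusted p = 0.321). Both were higher on all 3 arrays than on any adequate array, as were 5.85% of all probe sets, and both were highest on the array of replicate 1.

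Of the 5 member probe sets, 4 had an unadjusted p under 0.05 at 2 μg Se/g, where 15.3% of all probe sets did, and 0.00322% were called. Without replicate 1 at 2 μg Se/g the log2 changes were -0.28 for Msrb1, -0.14 for Msra, -0.17 for Msrb2, and 0.61 and 0.46 for the brighter and the dimmer Msrb3 probe set. The shifts of Msrb1, Msra and Msrb2 were thus smaller without replicate 1, and no member passed without it (adjusted p of 0.810 or more, with 2 probe sets called in all). Without replicate 3, in contrast, 5800 probe sets were called in place of 1. Msrb1 (-0.83, adjusted p = 0.0110), Msrb2 (-0.71, adjusted p = 0.0138) and Msrb3 (0.74 and 0.64, adjusted p = 0.0179 and 0.0232) were then among them, and Msra (-0.57, adjusted p = 0.0580) was not.

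No member was called in rats fed 5 μg Se/g, where 875 probe sets were (2.82%). There 2 of the 5 member probe sets had an unadjusted p under 0.05, both of Msrb3, as did 14.7% of all probe sets. Msrb1 read 11.01, 11.15 and 11.29 at 5 μg Se/g, against 11.36, 11.33 and 11.41 at 0.24 μg Se/g. All 3 lay below the adequate arrays, as for 12.5% of all probe sets, and the log2 change was -0.22 (SE 0.21, 95% interval -0.67 to 0.24, adjusted p = 0.706). This SE too pools the spread at 2 μg Se/g. Without replicate 1 of that diet in the limma fit, no member passed at 5 μg Se/g (adjusted p of 0.0916 or more). Among the 22 selenoproteins Msrb1 was 2nd from the lowest at this intake, and 3rd in rats fed 2 μg Se/g. At 5 μg Se/g, 2 selenoproteins were called higher, Selenom (1.44), of the endoplasmic reticulum, and Selenon (0.57), which acts in calcium handling, and none was called lower. The list median was 0.03, against -0.03 over all probe sets.

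Msrb3 had the largest shift of the family at 5 μg Se/g too. Probe set 1383193_at read 7.38, 7.53 and 7.73 at 5 μg Se/g, against 6.89, 7.41 and 6.74 at 0.24 μg Se/g. The shift was 0.53 (SE 0.16, 95% interval 0.19 to 0.88, adjusted p = 0.113). The lowest array at 5 μg Se/g lay under the highest adequate array, so the groups overlapped. Probe set 1380470_x_at read 4.81, 5.08 and 4.69, against 4.34, 4.69 and 4.14 at 0.24 μg Se/g, with a shift of 0.47 (SE 0.15, adjusted p = 0.148). Its groups did not overlap, as for 11.1% of all probe sets, but at 2 decimals its lowest array and the highest adequate one were equal.

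The Msrb3 result at 5 μg Se/g depended on the arrays and settings of the fit. With all rat arrays in 1 limma fit, 1383193_at passed (adjusted p = 0.0452), and with array weights both probe sets passed. Replicate 2 of the adequate diet was the highest of its group on both probe sets, so leaving it out had to raise the change. Without it the log2 change of 1383193_at was 0.73 (adjusted p = 0.0197). Without replicate 3 of the same diet the change was 0.40 (adjusted p = 0.308). With 1 array of the compared diets left out, 351 to 1065 of all probe sets were called, against 875 with none left out. The comparisons of 2 and 5 μg Se/g share the same 3 adequate arrays, so their Msrb3 shifts are not independent. In Se-deficient rats 1383193_at read 7.11, 7.17 and 7.15, inside the adequate range.

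Some markers of other cells were called in rats fed 5 μg Se/g, where neither Msrb3 probe set passed the test. Of 8 stellate and fibroblast markers 4 were called higher and 1 lower. The mean of their log2 values per array was 8.44 to 8.82 at 5 μg Se/g, against 7.93 to 8.42 for the adequate diet. Col1a1, a fibrillar collagen chain, rose by 1.62 and Acta2, smooth muscle actin, by 0.90, while Lrat, which stores retinol in quiescent stellate cells, fell by 2.11. Of 7 measured endothelial markers 3 were called higher, with array means of 9.69 to 9.79 at 5 μg Se/g, against 9.12 to 9.48 for the adequate diet, and Pecam1 among them rose by 0.92, while 3 of the 7 had changes below 0 and did not pass. At 2 μg Se/g the stellate and fibroblast markers averaged 8.39 to 8.53, with 0 of 8 called, and the endothelial markers 9.08 to 9.58, with 0 of 7 called. Of 5 bile duct markers Krt19 was called higher (2.63), and of 6 macrophage and leukocyte markers Clec4f was called lower (-1.78) at 5 μg Se/g. The macrophage and leukocyte array means were 8.96 to 8.995 at 5 μg Se/g, against 9.17 to 9.43 for the adequate diet. Only 3 of these 6 markers had changes below 0, with a median of -0.097, and those means include the fall of Clec4f. Of 4 measured red blood cell markers 0 were called and 0 were below 0 (median 0.70), with array means of 7.86 to 8.39 at 5 μg Se/g, against 7.12 to 7.74 for the adequate diet. No defining marker was listed at 0, and the part of these cells in the Msrb3 values was not tested. Hepatocyte markers averaged 13.65 to 13.77 at 5 μg Se/g and 13.68 to 13.75 at 0.24 μg Se/g.

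**Figure D4:**
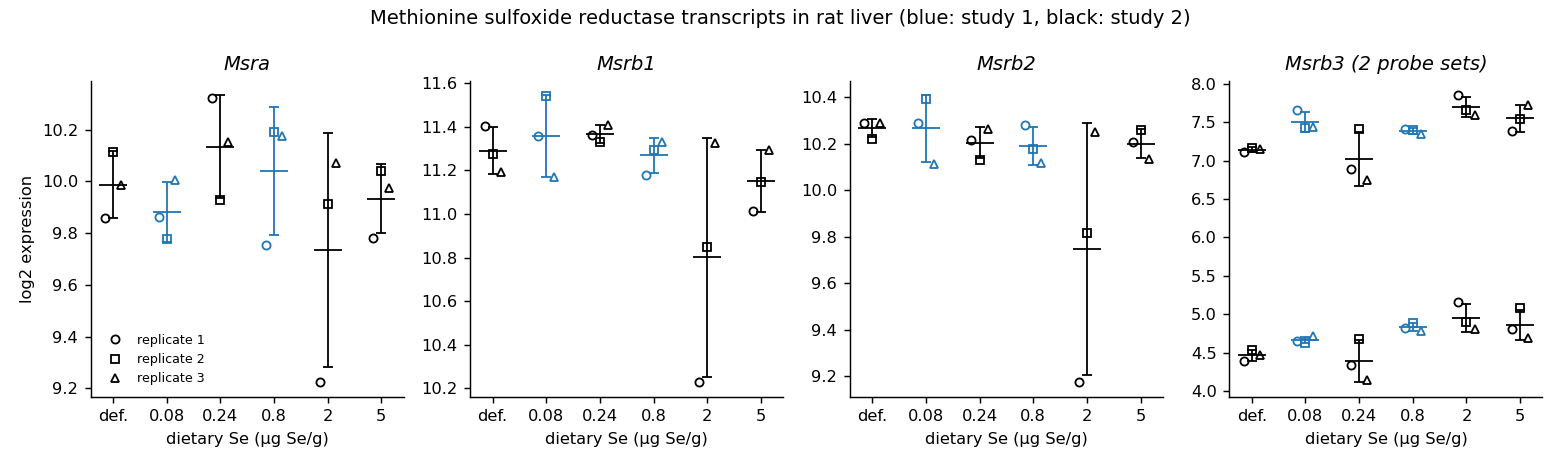
Log2 expression (vertical axis) of the 4 genes in rat liver by dietary Se (horizontal axis, Se-deficient to 5 μg Se/g), with the symbol giving the replicate number and bars for the mean ± SD of 3 arrays, and the diets of study 1 in blue and of study 2 in black. At 2 μg Se/g replicate 1 is lowest for Msra (9.22), Msrb1 (10.23) and Msrb2 (9.17) and highest for both Msrb3 probe sets (7.85 and 5.16).

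The recycling partners at high Se were read from the same lists. Txnrd1, a selenoprotein and an Nrf2 target, differed by 0.61 in rats fed 2 μg Se/g and by 0.58 in those fed 5 μg Se/g (adjusted p of 0.321 and 0.214), and its arrays lay wholly above those of the adequate diet, as for 5.85% and 11.1% of all probe sets. Txn1 differed by -0.36 and -0.03 and Txn2, the mitochondrial thioredoxin, by -0.51 and -0.02 at these intakes. None of the 14 genes was called at either intake. Of the methionine cycle, Cbs, which takes homocysteine out of the cycle towards cysteine, fell by 0.81 at 5 μg Se/g (adjusted p = 0.00410). It was the only 1 of 10 genes called, and Mat2a, which makes S-adenosylmethionine outside the adult hepatocyte, differed by 0.66 with an adjusted p of 0.0550.

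Between 0.8 and 0.08 μg Se/g, in rat study 1, no member differed by more than 1.12-fold. Msrb1 read 11.18, 11.30 and 11.33 at 0.8 μg Se/g, against 11.36, 11.54 and 11.17 at 0.08 μg Se/g, a log2 change of -0.09 (95% interval -0.36 to 0.18). Msra differed by 0.16 and Msrb2 by -0.07, with overlapping groups. The 2 Msrb3 probe sets disagreed, at -0.12 for 1383193_at and 0.17 for 1380470_x_at. The first lay wholly lower at 0.8 μg Se/g, as for 5.26% of all probe sets, and the second wholly higher, as for 4.2%. In limma 0 of all probe sets were called here and 1421 had an unadjusted p under 0.05 (4.58%).

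Over the 6 rat diets the Msrb1 mean was highest at 0.24 μg Se/g (11.37), then 11.36 at 0.08, 11.29 in Se deficiency, 11.27 at 0.8, 11.15 at 5 and 10.80 at 2 μg Se/g. The first 4 did not differ beyond their spread. The Msrb2 means of the 5 diets other than 2 μg Se/g lay between 10.19 and 10.27. Msrb3 (1383193_at) was lowest at 0.24 μg Se/g (7.02) and in Se deficiency (7.14), and both diets of study 1, at 7.51 for 0.08 and 7.38 for 0.8 μg Se/g, lay above them. By the paper's methods the 2 rat studies were processed separately, so this order across studies was not tested.

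The genes most like each member were found by Pearson's r over the arrays of a fit, 1 probe set per gene. Over 9 mouse liver arrays they were Mocs2 for Msrb1 (r = 0.950), Grpel2 for Msra (0.976), Mmab for Msrb2 (0.976) and Bace2 for Msrb3 (0.955), chosen from 19509 probe sets. Over 9 kidney arrays Arf5 was most like Msrb1 (r = 0.979), and Pdik1l, Hspa14 and Cox7a2l were most like Msra, Msrb2 and Msrb3. In kidney the Msrb3 probe set was dimmer than the median probe set, and Msra had the same value on 4 of the 9 arrays. Each r is the highest among many candidates and was not tested. Over the 12 arrays of rat study 2 they were Pemt for Msrb1 (r = 0.986), Npc2 for Msrb2 (0.995), Spp2 for Msra (0.942) and Ppfibp1 for Msrb3 (0.969), from 12370 probe sets. None of these genes was nearest to a member in more than 1 of the 3 sets of arrays. The rat arrays include the 2 μg Se/g replicates that lie far apart on Msrb1 and Msrb2.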

How the data were processed

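The authors deposited log2 expression per probe set, from Affymetrix mouse and rat genome arrays. The submitters' processing notes name GCRMA, with no version, whereas RMA, run apart for each study and mouse tissue, stands in the paper. The values were used as deposited, and 64 mouse and 57 rat array controls were left out, leaving 45037 and 31042 probe sets. No filter on signal was applied, and no genome positions are given because the files name no build. Symbols come from the platform annotation, in which 34945 mouse and 20826 rat probe sets carry 1 symbol, 932 and 436 several, and 9160 and 9780 none. A gene with several probe sets is represented by the brightest, and every member probe set is reported.

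Tests used limma 3.58.1 (lmFit with 1 coefficient per diet, eBayes defaults) in R 4.3.3, with p-values adjusted by Benjamini-Hochberg across all tested probe sets and a threshold of 0.05. The 9 arrays of each mouse tissue, the 12 of rat study 2 and the 6 of rat study 1 were fitted separately, and the tissue comparison used 18 mouse arrays. Rat diets were assigned to studies from the paper. The labels describe each array as from 1 animal, and by the methods mouse liver and kidney share 3 mice per diet. Fits were tested on simulated data. Python 3.11.15 with matplotlib 3.10.9 drew the figures. Members and gene lists were chosen with earlier results of these data known. Named genes are all members, some of the called list genes, list genes tied to Msr function and the genes most like each member. Not every called cell marker is named.

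Between Se-deficient and adequate mouse liver every pair of same-numbered arrays had r of 0.105 or more (0.462, 0.105 and 0.319). This held in no other comparison of diets, so the replicate block is given beside that one. The same pairs in kidney came close, with r of 0.107, 0.0903 and 0.276. Alternatives were other sets of arrays in the fit, trend and robust eBayes, array weights, a signal filter, quantile normalization, the mean of a gene's probe sets, the block, and leaving out each array.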

Additional observations from a re-analysis of the deposited data

Results flagged for a closer look

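Msra was flagged because its Se-deficient arrays lay on opposite sides of the adequate mean in the livers of the 2 species. How many genes outside the family do so was not counted. All 3 Se-deficient mouse livers lay above the adequate mean, by 0.13 to 0.21 on the log2 scale, a mean change of 0.18, and all 3 Se-deficient rat livers lay below theirs, by -0.28 to -0.02, a mean change of -0.15. The difference between the species was not tested, since the arrays differ, and neither change passed its own test. In the rat the Se-deficient and adequate arrays overlapped. With each array left out in turn the change ran from 0.11 to 0.23 in mouse liver and from -0.25 to -0.05 in rat liver.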

How the results depend on the processing

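Of 740 alternative values of member probe sets, 670 kept their direction and their side of the threshold, 0 lost a call, 13 passed a threshold that the reported value did not, and 57 changed sign. No member passed in an alternative for Se deficiency, marginal Se or 0.8 μg Se/g. The passes were all in rats at high Se. With limma array weights all 5 member probe sets passed at 2 μg Se/g (lowest adjusted p = 0.000377), but 13048 probe sets were called, and replicate 2 had a weight of 153.8 against 0.171 and 0.163 for replicates 1 and 3, and the estimation of weights stopped before it converged. At 5 μg Se/g both Msrb3 probe sets passed with array weights (adjusted p of 0.0254 and 0.0322), and the brighter passed with all rat arrays in 1 fit (0.0452) and without replicate 2 at 0.24 μg Se/g (0.0197). The passes without replicate 3 at 2 μg Se/g stand in the report. Causes were not tested.

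Counts of called probe sets moved as follows. In Se-deficient mouse liver against 0.2 μg Se/g, 10 were called, 22 with all mouse arrays in 1 fit, 22 with array weights, 16 with the replicate block, and 6 to 21 with 1 array left out. Against 0.05 μg Se/g, 17 became 49 with the replicate block and 8 to 10 with 1 array left out. In kidney against 0.2 μg Se/g, 3 became 1 with only those diets in the fit, 5 with all mouse arrays, 6 with array weights and 2 to 4 with 1 array left out. Against 0.05 μg Se/g, 5 became 1 with only those diets, 3 with the replicate block and 0 to 5 with 1 array left out. In Se-deficient rat liver, 1 became 10 with only those diets, 6 with all rat arrays, 2 with trend and robust, 22 with array weights, 2 without dim probe sets, 4 without replicate 1 at 2 μg Se/g (chosen after seeing the data) and 1 to 3 with 1 array left out. At 2 μg Se/g, 1 became 0 with only those diets, 6 with all rat arrays and 1 to 5800 with 1 array left out. At 5 μg Se/g, 875 became 3184 with array weights and 351 to 1065 with 1 array left out. Between 0.8 and 0.08 μg Se/g, 0 became up to 39. The difference between mouse tissues gave 1 call, 5 with array weights, 2 with the replicate block and 1 to 2 with 1 array left out.

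Member changes that turned sign in a refit of all arrays were small, and none passed. With array weights they were -0.093 for Msrb1 and 0.14 for Msrb3 (1439151_at) at 0.05 against 0.2 μg Se/g in liver, 2.3e-05 for Msrb3 (1454997_at) in Se-deficient against adequate kidney, 0.0067 for Msra and -0.0029 for Msrb2 in Se-deficient against marginal kidney, and 0.017 for Msrb2 at 5 μg Se/g. Quantile normalization gave -0.00062 at 0.05 against 0.2 μg Se/g and 0.025 for Se-deficient against marginal liver for 1454997_at. The mean of the Msrb3 probe sets gave 0.039 for Se-deficient against marginal liver, and in kidney 0.015 for Se-deficient against adequate, 0.039 for marginal against adequate and -0.024 for Se-deficient against marginal. In rats it gave 0.021 at 0.8 against 0.08 μg Se/g.

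With 1 array left out, where a group of 2 is assumed to vary like the others, changes that turned sign had these ranges. In Se-deficient against adequate liver they were -0.16 to 0.025 for Msrb2, -0.0097 to 0.19 for 1439151_at and -0.083 to 0.11 for 1454997_at. For marginal against adequate liver they were -0.16 to 0.10 for Msrb1, -0.24 to 0.23 for 1439151_at and -0.067 to 0.12 for 1454997_at. For Se-deficient against marginal liver they were -0.079 to 0.28 for Msrb2, -0.15 to 0.32 for 1439151_at and -0.097 to 0.067 for 1454997_at. In kidney, 1454997_at ran from -0.067 to 0.0085 for Se-deficient against adequate, from -0.11 to 0.024 for marginal against adequate and from -0.052 to 0.083 for Se-deficient against marginal. Msrb1 ran from -0.34 to 0.032 for marginal against adequate and from -0.30 to 0.0042 for Se-deficient against marginal kidney, where Msra ran from -0.041 to 0.013 and Msrb2 from -0.042 to 0.058. The tissue difference ran from -0.092 to 0.29 for Msrb1, from -0.067 to 0.14 for 1439151_at and from -0.055 to 0.13 for 1454997_at. In rats they were -0.043 to 0.23 for 1380470_x_at and -0.00995 to 0.32 for 1383193_at in Se deficiency, -0.041 to 0.029 for Msrb2 at 5 μg Se/g and -0.18 to 0.0039 for Msrb1 at 0.8 against 0.08 μg Se/g. Se-deficient against adequate Msrb1 kept its sign in each such refit, at -0.24 to -0.17 in liver, -0.49 to -0.10 in kidney and -0.13 to -0.03 in rats. The shift of Msrb1 relative to Msra was -0.41 to -0.34 in mouse liver, -0.36 to 0.02 in kidney and -0.05 to 0.16 in rats.

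Between diets, outside Se-deficient against adequate mouse liver, at least 1 pair of same-numbered arrays had r of 0.0903 or less. Whether arrays of the same number share more than that number is not known. The replicate block changed no member's call.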
